A study of Homo sapiens with 18 samples.

Results

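The change in the response to pioglitazone between 12 and 48 h of exposure was measured in NCI-H2347, an established human lung cancer cell line. It was read from 12 of the 18 arrays of the series, chosen by their labelled times, with 3 arrays in each of 4 groups: pioglitazone for 48 h, vehicle for 48 h, pioglitazone for 12 h and vehicle for 12 h. All cultures came from this 1 line and grew in RPMI with 5% fetal bovine serum. At 24 h after plating they were given fresh medium of the same kind, which held 50 µM pioglitazone in the treated groups and the solvent DMSO in the vehicle groups. The remaining arrays, taken at 24 h, entered the normalization, the detection filter and the estimate of spread, and are not described. Nothing in the labels says that arrays of 1 group came from separate cultures, so p-values here describe array-to-array spread alone, whose source could be technical.

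Pioglitazone is a thiazolidinedione, an agonist of the nuclear receptor PPARG, which pairs with the retinoid X receptor and switches on genes of lipid uptake, storage and oxidation. Genes of cell division form another large group whose transcription follows the growth of a culture, and many of those that act in G2 and mitosis are held silent in resting cells by the DREAM complex through a short promoter element called the cell cycle homology region. Drug and vehicle cultures both age during an experiment, so a drug effect can change because the treated cells move, because the vehicle cells move, or both.

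The drug effect at a time is the log2 signal with pioglitazone minus that with vehicle, and the change in effect is the effect at 48 h minus the effect at 12 h. It equals the treated part (pioglitazone cultures, 48 h minus 12 h) minus the vehicle part (vehicle cultures, 48 h minus 12 h), and the parts share no array. A negative change means that the drug effect was lower at 48 h than at 12 h. A gene was called at a limma adjusted p under 0.05 over all 11680 genes tested.

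The 12 arrays detected 17040 to 18880 of 47323 probes, or 36% to 39.9%. Within-group correlations over these 12 arrays ran from 0.973 to 0.995. The lowest belonged to pioglitazone 48 h replicate 3, at 0.979 and 0.973 with its group, whose other arrays correlated at 0.99. That array also had a higher background, 153 signal units in undetected probes, against 102 to 113 on the other 11 arrays. The 24 h arrays, which entered the normalization, had 138 to 145 such units. Each result is therefore given without pioglitazone 48 h replicate 3 where it matters. Epithelial markers (EPCAM, CDH1 and 4 keratins) were detected on all 12 arrays, as were the lung genes NKX2-1 and NAPSA, while the surfactant genes SFTPB and SFTPC were detected on none. PTPRC and CD3E of leukocytes, PECAM1, CDH5 and KDR of endothelium, and LUM and PDGFRB of fibroblasts were at background on all 12 arrays. In the same lists CD14 of leukocytes was detected on 11 arrays and VWF of endothelium on 4. LYZ of leukocytes and DCN of fibroblasts were detected on 2 arrays each, and COL3A1 of fibroblasts on 1. COL1A1 and COL1A2 of the 6 fibroblast markers and CD68 of the 5 leukocyte markers were detected on all 12, and the summed fibroblast list held 804 to 829 signal units in pioglitazone 48 h, 590 to 742 in vehicle 48 h, 412 to 499 in pioglitazone 12 h and 648 to 694 in vehicle 12 h. The part of COL1A1-bearing cells in any result below was not tested.

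The drug effect changed between 12 and 48 h for 1063 genes, 9.1% of those tested, being higher at 48 h for 453 genes (3.88%) and lower for 610 (5.22%). Large changes were mostly downward: 224 genes were at least 2-fold lower and 96 at least 2-fold higher. The treated part was called for 4433 genes, 38% of those tested, and the vehicle part for 2983, or 25.5%. Across genes the parts correlated at a Pearson r of 0.648, given as a description since genes are not independent replicates. Cultures thus moved widely with or without the drug, and the change in effect is what is left once the vehicle movement is taken off.

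Whether treated or vehicle cultures moved more was tested by the sum of the parts, which is independent of their difference in a design with equal groups and was called for 45.2% of all genes. Of the 1063 called genes, the treated part was the larger for 647 (60.9%), the vehicle part for 108 (10.2%), and the sizes could not be separated for 308 (29%). Among the 610 genes lower at 48 h, 411 had the larger treated part and 55 the larger vehicle part, and among the 453 higher genes these counts were 236 and 53. Of the 610 lower genes, 213 also had a called vehicle part in the same direction as the change, so that both cultures fell. A lower vehicle part was called for 13.6% of all genes. The drug effect itself was the larger at 48 h for 620 of the called genes (58.3%) and the larger at 12 h for 62 (5.83%), by the sum of the effects at both times, which was called for 30.2% of all genes. Opposite movement, with both parts called, was found for 34 of the higher and 36 of the lower genes. Its share over all genes was not counted.

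**Figure D1:**
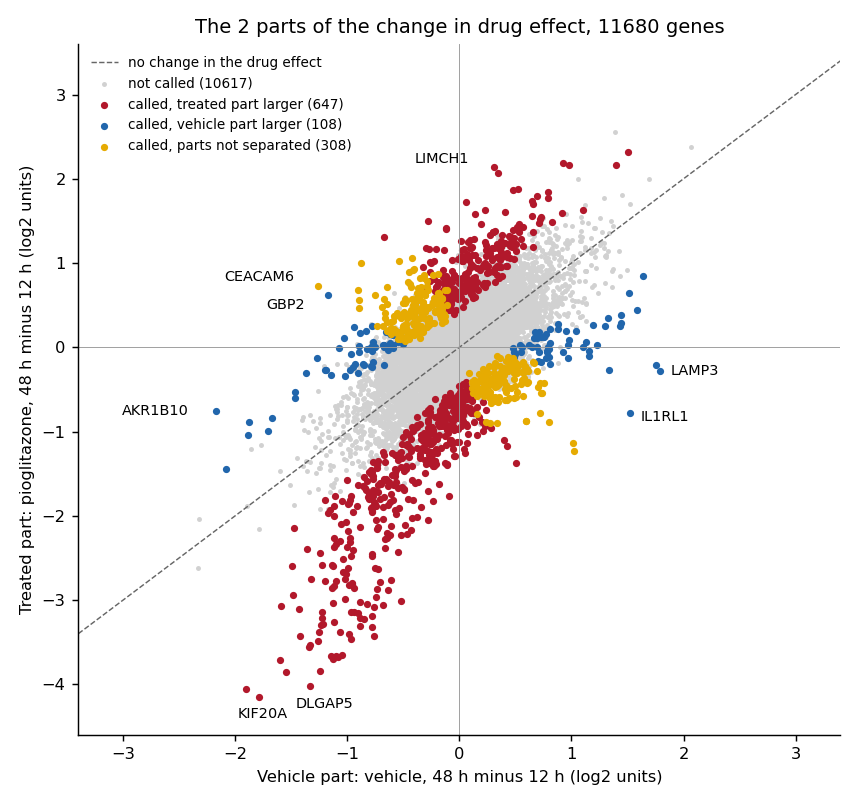
Treated part (vertical, log2 units) against vehicle part (horizontal, log2 units) of the change in drug effect for each of 11680 genes, with the dashed line marking equal parts. Red points, where the treated part was larger, form a long arm at the lower left in which both cultures fell and treated cultures fell further. Blue points, where the vehicle part was larger, lie nearer the horizontal axis than the vertical one. Some of these genes still moved in treated cultures, such as AKR1B10 with a treated part of -0.76 and GBP2 with 0.62.

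Without pioglitazone 48 h replicate 3, 1303 genes were called, 527 higher and 776 lower. All 1063 genes kept their sign and an unadjusted limma p under 0.05, and 954 kept the call. Scaling each array by its median in place of quantile normalization left 67 calls, 8 higher and 59 lower, so that 11.9% of calls were upward against 42.6% in the reported fit. All 67 were among the 1063 with the same sign. That scaling moved the median change of all genes to 0.15, against 0.01 with quantile normalization, and raised the median standard error of a change to 0.387, against 0.207. Calls kept under it are named with each group below.

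Among the lists examined, genes of mitosis held the most lower calls, 13.9% of the 610 lower genes. Over 5 lists (cyclins and kinases, spindle checkpoint and anaphase, kinetochore and spindle, kinesins, condensin and cohesin), 85 of 133 tested genes were called lower, or 63.9% against 5.22% of all genes, and none was called higher. All 85 had the larger treated part, 80 were at least 2-fold lower, and in 78 both cultures fell. Among all 610 lower genes, 411 had the larger treated part and 224 were at least 2-fold lower. Of the 133 genes, 106 had a called lower treated part, against 19.2% of all genes. A called lower vehicle part was found for 91 of the 133, against 13.6% of all genes. The median change over the 133 genes was -1.19, against 0.01 over all genes, the median treated part -2.06 and the median vehicle part -0.74. The median drug effect on these genes was -1.58 at 48 h and -0.17 at 12 h. In a bulk sample, fewer dividing cells and less message in each dividing cell cannot be told apart.

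DLGAP5, a spindle microtubule-bundling protein, had the lowest change of the genes detected in all 4 groups. Its log2 signals were 6.57, 5.42 and 6.80 with pioglitazone for 48 h, against 9.07, 9.21 and 8.95 with vehicle for 48 h. At 12 h they were 10.35, 10.50 and 10.01 with pioglitazone, against 10.40, 10.27 and 10.53 with vehicle. The groups at 12 h overlapped, vehicle cultures were lower by 1.33 at 48 h without touching the treated range, and the treated arrays lay lowest of all. The effect was thus 6.46-fold lower at 48 h, a change of -2.69 ± 0.35 (SE; limma adjusted p = 8.17e-05), and a second probe gave -2.42.

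CCNB2, the cyclin B2 partner of the mitotic kinase CDK1, behaved the same way with less scatter. It read 8.27, 7.97 and 7.70 with pioglitazone and 10.47, 10.27 and 10.31 with vehicle at 48 h. At 12 h it read 11.50, 11.47 and 11.42 with pioglitazone and 11.58, 11.61 and 11.63 with vehicle. No array of one group entered the range of another, and the order was pioglitazone 48 h, vehicle 48 h, pioglitazone 12 h, vehicle 12 h from low to high. The change was -2.22 ± 0.17 (SE; limma adjusted p = 4e-07), of which the treated part was -3.48 and the vehicle part -1.26.

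TOP2A, the topoisomerase that untangles sister chromosomes, had signals of 8.83, 8.27 and 9.03 with pioglitazone and 11.50, 11.09 and 11.02 with vehicle at 48 h. The 12 h signals were 12.30, 12.23 and 11.74 with pioglitazone and 12.26, 12.31 and 12.24 with vehicle. Treated and vehicle arrays overlapped at 12 h and stood well apart at 48 h. Its change was -2.31 ± 0.26 (SE; limma adjusted p = 1.56e-05).

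Mitotic kinases and cyclins were called lower for 19 of 23 genes (82.6%, against 5.22% of all genes). Their median change was -1.68 and their median treated part -2.77. Without background correction that median change was -1.07. NEK2, a centrosome kinase, changed by -2.66, BUB1, a checkpoint kinase at the kinetochore, by -2.57, and AURKB, the kinase of the chromosomal passenger complex, by -2.43. PLK1, a master kinase of mitotic entry, was not well above background on any pioglitazone 48 h array, with a mean of 4.61, against 6.42 in vehicle 48 h. Its effect at 48 h was therefore at least 2.17-fold lower, and with the dim group raised to the detection floor its change was -1.01 in place of -1.70. CDC25C, the phosphatase that activates CDK1, was dim in the same group and was at least 2.38-fold lower at 48 h. Its change was -1.68, with 2 further probes at -1.19 and -0.37.

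Kinetochore, centromere and spindle genes were called lower for 39 of 48 (81.2%, against 5.22% of all genes). The median change was -1.49, or -0.84 without background correction. CENPF and HMMR, which bind kinetochores and spindle poles, changed by -2.54 and -2.48, and ASPM, a spindle pole protein, by -2.37. NDC80, the microtubule clamp of the kinetochore, was at background in pioglitazone 48 h and at least 4.54-fold below vehicle at 48 h. All members but 1 lay below 0, with a range of -2.69 to 0.03.

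Motors followed a narrower pattern. Of 23 kinesins tested, 10 were called lower (43.5%, against 5.22% of all genes). The median change was -0.36, or -0.15 without background correction. KIF2C, which takes microtubules apart at the centromere, changed by -2.60, KIF14 by -2.59, KIF15 by -2.42 and KIF20A, a motor of cytokinesis, by -2.36. KIF20A had the deepest treated part of the named genes, -4.15, with a vehicle part of -1.79. The checkpoint and anaphase list, which holds many subunits that every cell uses, was called lower for 12 of 25 genes (48%). CDC20, which activates the anaphase-promoting complex, changed by -2.41 and by -1.94 without pioglitazone 48 h replicate 3, its lowest array at 8.02, against 9.64 and 9.21 on the others of that group. UBE2C, the ubiquitin-conjugating enzyme of that complex, changed by -2.14.

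Under median scaling 11 of the 19 kinases and cyclins, 17 of the 39 kinetochore and spindle genes, 4 kinesins, 4 checkpoint and anaphase genes and 1 gene of the condensin list kept the call. MKI67, the gene of the proliferation antigen Ki-67, was not called: its change was 0.41 ± 0.25 (SE; limma adjusted p = 0.342). It was not well above background in either 48 h group, with values of 4.58, 4.48 and 4.49 with pioglitazone and 5.32, 4.66 and 4.496 with vehicle, so any fall below that level could not be read. At 12 h it gave 5.47, 5.47 and 5.54 with pioglitazone, all below 6.27, 6.32 and 6.05 with vehicle.

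**Figure D2:**
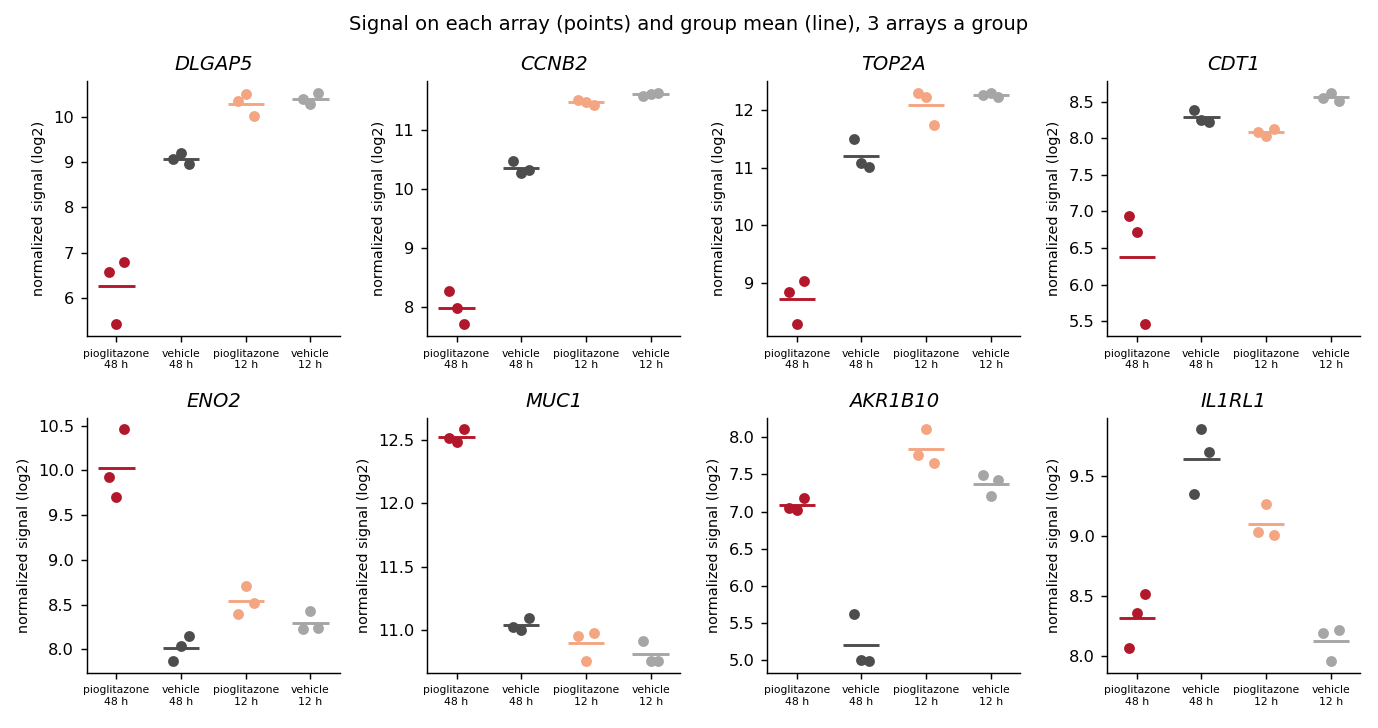
Normalized log2 signal of 8 genes on each array, grouped from left to right as pioglitazone 48 h, vehicle 48 h, pioglitazone 12 h and vehicle 12 h, with points for the 3 arrays and a line for the mean. DLGAP5, CCNB2 and TOP2A sit lowest in pioglitazone 48 h with vehicle 48 h between. ENO2 and MUC1 are highest in pioglitazone 48 h, and AKR1B10 and IL1RL1 owe most of their change to the vehicle cultures.

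The promoters of the mitotic genes were read because the members moved together. RefSeq promoter windows on build GRCh38.p14 run from 250 bases before to 50 after a start, and 6702 tested genes had exactly 1 listed start. The cell cycle homology core TTTGAA, on either strand (TTCAAA), was present in 75.9% of the 29 windows of genes called at least 4-fold lower, in 36.5% of 148 at least 2-fold lower, and in 23.6% of all 369 called lower. It was present in 6.17% of the 227 windows of genes called higher and in 9.67% of all windows. The CCAAT box on either strand (ATTGG), which can share only an end letter with that core, was present in 86.2% of the windows of genes at least 4-fold lower, 33% of those higher and 37.9% of all. Of the mitotic windows, 56.2% of 89 held the first motif, against 0 of 34 for licensing and replication genes, although 61.8% of both groups held CCAAT. These are counts of letters, with no test and no statement about binding.

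Windows of 5 genes are printed, cut to the 120 bases before the start, for the mitotic genes with the lowest changes that held both motifs there. They show how the motifs sit relative to each other and to the start at the right-hand end; capitals mark both motifs.
DLGAP5 (chr14:55191586-55191705, minus strand): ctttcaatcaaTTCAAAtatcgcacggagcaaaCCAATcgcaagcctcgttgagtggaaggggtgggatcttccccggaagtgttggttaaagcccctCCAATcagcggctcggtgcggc
HMMR (chr5:163460512-163460631, plus strand): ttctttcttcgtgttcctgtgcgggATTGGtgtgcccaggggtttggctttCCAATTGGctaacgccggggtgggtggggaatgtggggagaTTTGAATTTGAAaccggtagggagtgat
CDC20 (chr1:43358861-43358980, plus strand): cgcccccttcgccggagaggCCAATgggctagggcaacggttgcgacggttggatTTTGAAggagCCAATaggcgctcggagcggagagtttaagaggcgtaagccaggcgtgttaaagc
ASPM (chr1:197146670-197146789, minus strand): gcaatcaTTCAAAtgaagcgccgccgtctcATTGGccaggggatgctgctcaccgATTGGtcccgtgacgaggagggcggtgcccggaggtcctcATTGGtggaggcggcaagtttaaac
CCNB2 (chr15:59105026-59105145, plus strand): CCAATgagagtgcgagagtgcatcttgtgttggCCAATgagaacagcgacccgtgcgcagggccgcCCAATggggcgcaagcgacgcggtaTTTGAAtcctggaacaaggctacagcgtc
CCNB2 holds a homology core that begins 29 bases before the start, downstream of 3 CCAAT boxes, the nearest of them 54 bases before it. HMMR holds a pair of cores in direct succession, the nearer beginning 22 bases before the start, and CCAAT on both strands overlapping in 1 stretch. DLGAP5 and ASPM hold the core farther out, beginning 109 and 113 bases before the start, with CCAAT between core and start, and CDC20 at 65 bases. The changes of these genes were -2.69 for DLGAP5, -2.48 for HMMR, -2.41 for CDC20, -2.37 for ASPM and -2.22 for CCNB2. Their narrow range follows from choosing the lowest changes.

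**Figure D3:**
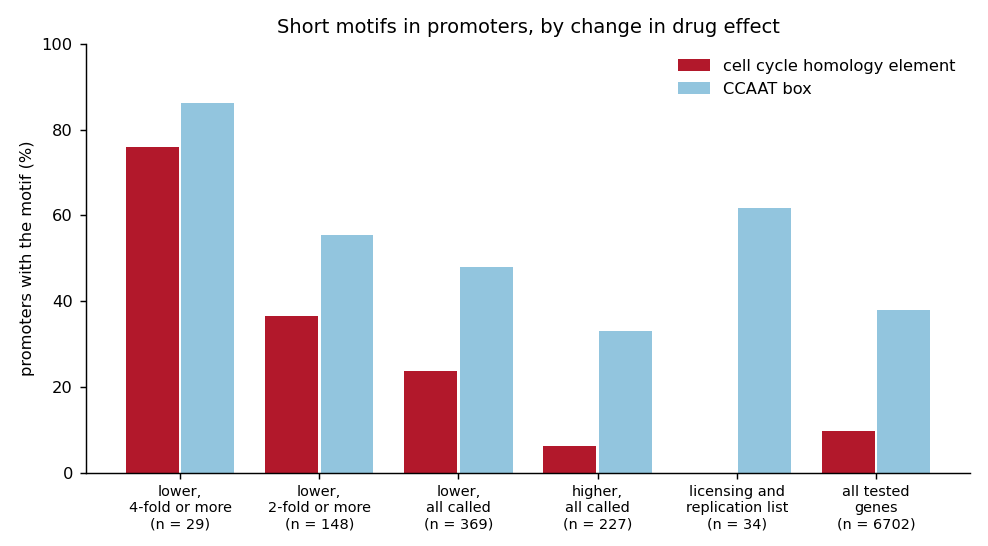
Percentage of promoter windows that hold the cell cycle homology element (red) or the CCAAT box (blue), for genes grouped by their change in drug effect, for the licensing and replication list and for all tested genes. The red bar stands at 75.9% for genes at least 4-fold lower, at 6.17% for genes called higher and at 9.67% for all genes.

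Genes of the G1 to S transition, DNA replication and repair were called less often than the mitotic lists, a difference that was not tested. Over 5 such lists 37 of 130 tested genes were called lower (28.5%, against 5.22% of all genes) and none higher. The median change was -0.36, with a median effect of -0.76 at 48 h and of -0.28 at 12 h. The members differed at 12 h: the median effect was -0.37 for licensing and replication genes and -0.06 for nucleotide synthesis genes. Homologous recombination and Fanconi genes were called lower for 11 of 24 (45.8%), with a median change of -0.66, or -0.29 without background correction. Among them were FANCI, which clamps onto damaged DNA with its partner, at -1.67, and RAD51AP1, a recombinase cofactor, at -1.56. FANCB, detected on 1 of 3 pioglitazone 48 h arrays, was at -1.64, while its other probe gave -0.57. Licensing and replication genes were called lower for 11 of 48 (22.9%), led by CDT1 and FEN1, with a median change of -0.39, or -0.18 without background correction.

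CDT1, which loads the replicative helicase in G1, read 6.94, 6.71 and 5.46 with pioglitazone for 48 h and 8.38, 8.25 and 8.22 with vehicle for 48 h. At 12 h the values were 8.09, 8.03 and 8.12 with pioglitazone and 8.55, 8.62 and 8.51 with vehicle. Each treated group was wholly below its vehicle group, and the third pioglitazone 48 h array was the lowest by over 1 unit. The change was -1.43 ± 0.35 (SE; limma adjusted p = 0.0149) and -0.97 without that array. FEN1, the flap endonuclease of lagging-strand synthesis, changed by -1.25, with another probe at -0.66.

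Nucleotide supply showed both patterns. TK1, thymidine kinase, had an effect of -1.86 at 48 h and 0.05 at 12 h, a change of -1.91. RRM2, the small subunit of ribonucleotide reductase, was lower at both times, by -1.95 at 48 h and -0.73 at 12 h, and its change was -1.22. In the chromatin list 8 of 25 genes were called lower (32%, against 5.22% of all genes). Among them were ASF1B, a histone chaperone, at -1.75, and EZH2, the histone methyltransferase of Polycomb, at -1.34, with 2 further probes at -1.01 and -0.68. CCNA2, the S and G2 cyclin, led the G1 to S list at -1.999, where 3 of 22 genes were called, all lower (13.6%). CCND1, the G1 cyclin D1, changed by -0.06 ± 0.13 (SE; limma adjusted p = 0.818). APOBEC3B, a cytidine deaminase outside these lists, was among the 12 lowest genes at -2.51. Under median scaling CDT1 of the replication list and TK1 of the nucleotide list kept the call, and none of the recombination, chromatin or G1 to S lists did.

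Of 19 canonical histone genes 3 were called higher (15.8%, against 3.88% of all genes), none lower and 16 in neither direction. H4C8 had an effect of 1.74 at 48 h and 0.65 at 12 h, and H1-2 of 1.18 and 0.04. Members of these clusters are near-identical in sequence, so a probe may read several, and 4 of the 19 were at background in a whole group. With those raised to the floor the list's median change was 0.03, against 0.29 as measured.

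**Figure D4:**
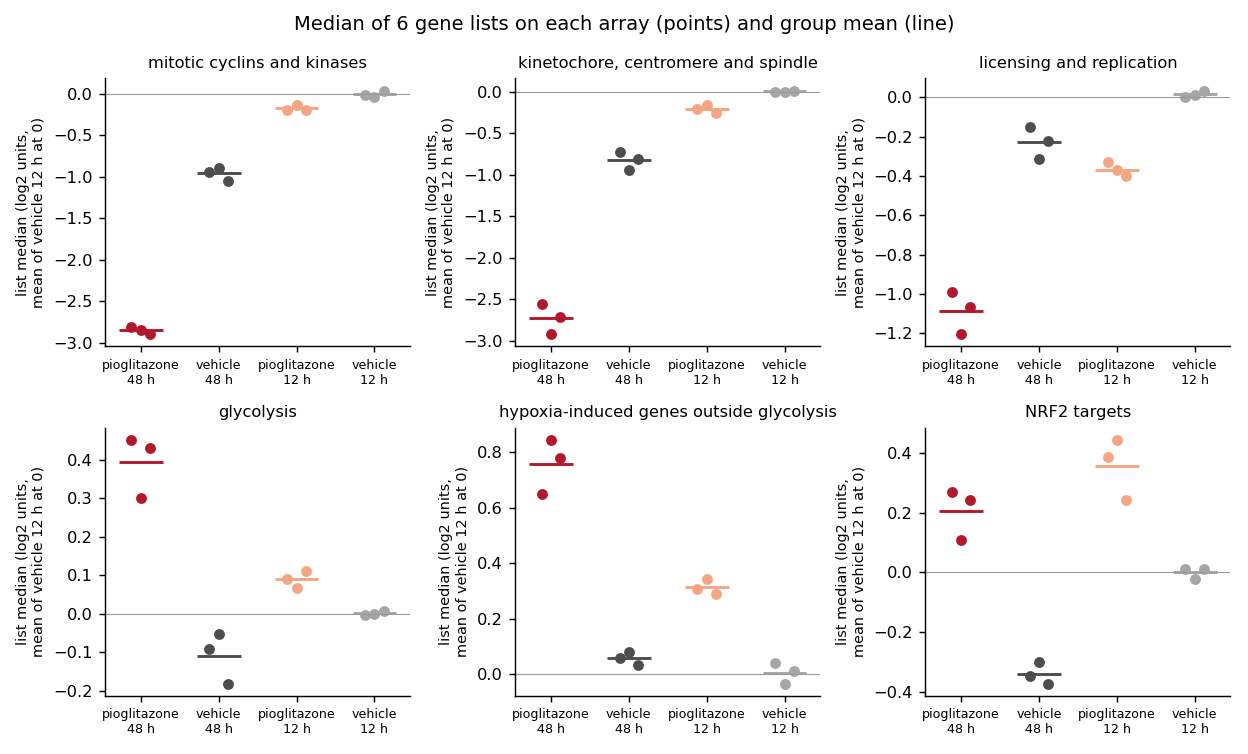
Median over the members of 6 gene lists on each array (log2 units, with the mean of vehicle 12 h for each gene at 0), as points for arrays and lines for group means. The mitotic lists lie between -2.92 and -2.56 with pioglitazone for 48 h and between -1.05 and -0.73 with vehicle for 48 h, while glycolysis and hypoxia medians are highest with pioglitazone for 48 h and NRF2 targets are lowest with vehicle for 48 h.

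Glycolysis and hypoxia-induced genes were called higher more often than all genes. Of 23 glycolysis genes 6 were called higher (26.1% against 3.88% of all genes) and 1 lower (4.35% against 5.22%), with a median change of 0.42. Hypoxia-induced genes outside glycolysis were called higher for 7 of 18 (38.9%) and lower for none, with a median change of 0.49, a median treated part of 0.48 and a median vehicle part of 0.03. Without background correction that median change was 0.27. The medians of the hypoxia list on single arrays did not overlap between drug and vehicle at either time: they were 0.65, 0.84 and 0.78 with pioglitazone and 0.06, 0.08 and 0.04 with vehicle at 48 h, and 0.31, 0.34 and 0.29 with pioglitazone and 0.04, -0.03 and 0.01 with vehicle at 12 h.

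ENO2, the enolase of neurons and of many tumours, had signals of 9.93, 9.70 and 10.46 with pioglitazone for 48 h, against 7.87, 8.04 and 8.15 with vehicle for 48 h. At 12 h the signals were 8.39, 8.70 and 8.51 with pioglitazone and 8.23, 8.43 and 8.23 with vehicle. The 12 h groups overlapped, and each pioglitazone 48 h array was above all 9 others. The effect was 3.41-fold higher at 48 h, a change of 1.77 ± 0.22 (SE; limma adjusted p = 4.27e-05). ALDOA, fructose-bisphosphate aldolase, changed by 1.06, with 2 further probes at 0.16 and 1.08, and SLC2A1, the glucose transporter GLUT1, by 0.62. LDHA, lactate dehydrogenase, changed by 0.76, of which the vehicle part was -0.57 and the treated part 0.20. PFKM, the muscle-type phosphofructokinase, was the one glycolysis gene called lower, at -0.57.

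ADM, a vasodilator peptide induced by low oxygen, changed by 1.13, BNIP3L, a mitophagy receptor, by 1.19, and P4HA1, a collagen prolyl hydroxylase, by 1.00. For each the vehicle part was between 0.03 and 0.09, not called, while each treated part was. BNIP3, the related mitophagy receptor, differed: it had a treated part of 0.50 and a vehicle part of -0.41, both called, so the cultures moved apart from both sides. Tricarboxylic acid cycle genes gave no call among 18, with a median of 0.01. Respiratory chain genes gave 2 higher of 67 (2.99%, against 3.88% of all genes), with a median of 0.06. Under median scaling ALDOA alone of the glycolysis genes kept the call and no hypoxia gene did; relative to the shift of all genes under that scaling, the list medians were 0.47 and 0.43.

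NRF2 targets, genes of glutathione and thiol defence under the oxidant sensor NRF2, also had a higher effect at 48 h, mostly by movement of the vehicle cultures. Of 22 genes 6 were called higher (27.3%, against 3.88% of all genes) and none lower. For 4 of the 6 the vehicle part was the larger. The median change was 0.35, the median treated part 0.00 and the median vehicle part -0.35. On single arrays the list median was 0.27, 0.11 and 0.24 with pioglitazone for 48 h and -0.35, -0.30 and -0.37 with vehicle for 48 h, against 0.39, 0.44 and 0.24 with pioglitazone for 12 h and values within 0.02 of 0 with vehicle for 12 h.

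AKR1B10, an aldo-keto reductase, read 7.04, 7.02 and 7.19 with pioglitazone for 48 h and 5.62, 5.00 and 4.99 with vehicle for 48 h, where 1 of 3 arrays detected it. At 12 h it read 7.76, 8.11 and 7.65 with pioglitazone and 7.49, 7.21 and 7.43 with vehicle. Both cultures fell, the vehicle ones by 2.17 and the treated ones by 0.76, and no 2 groups overlapped. The change was 1.41 ± 0.22 (SE; limma adjusted p = 4e-04). AKR1C3, another aldo-keto reductase, changed by 0.93 with a vehicle part of -1.20, and TXNRD1, thioredoxin reductase, by 0.76 with a vehicle part of -0.76 and a treated part of 0.01. TKT, transketolase of the pentose phosphate pathway, changed by 0.63 with neither part called larger. Close relatives of AKR1B10 and AKR1C3 exist, and whether these probes read them was not tested. No gene of this list kept the call under median scaling, where its median relative to all genes was 0.36.

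**Figure D5:**
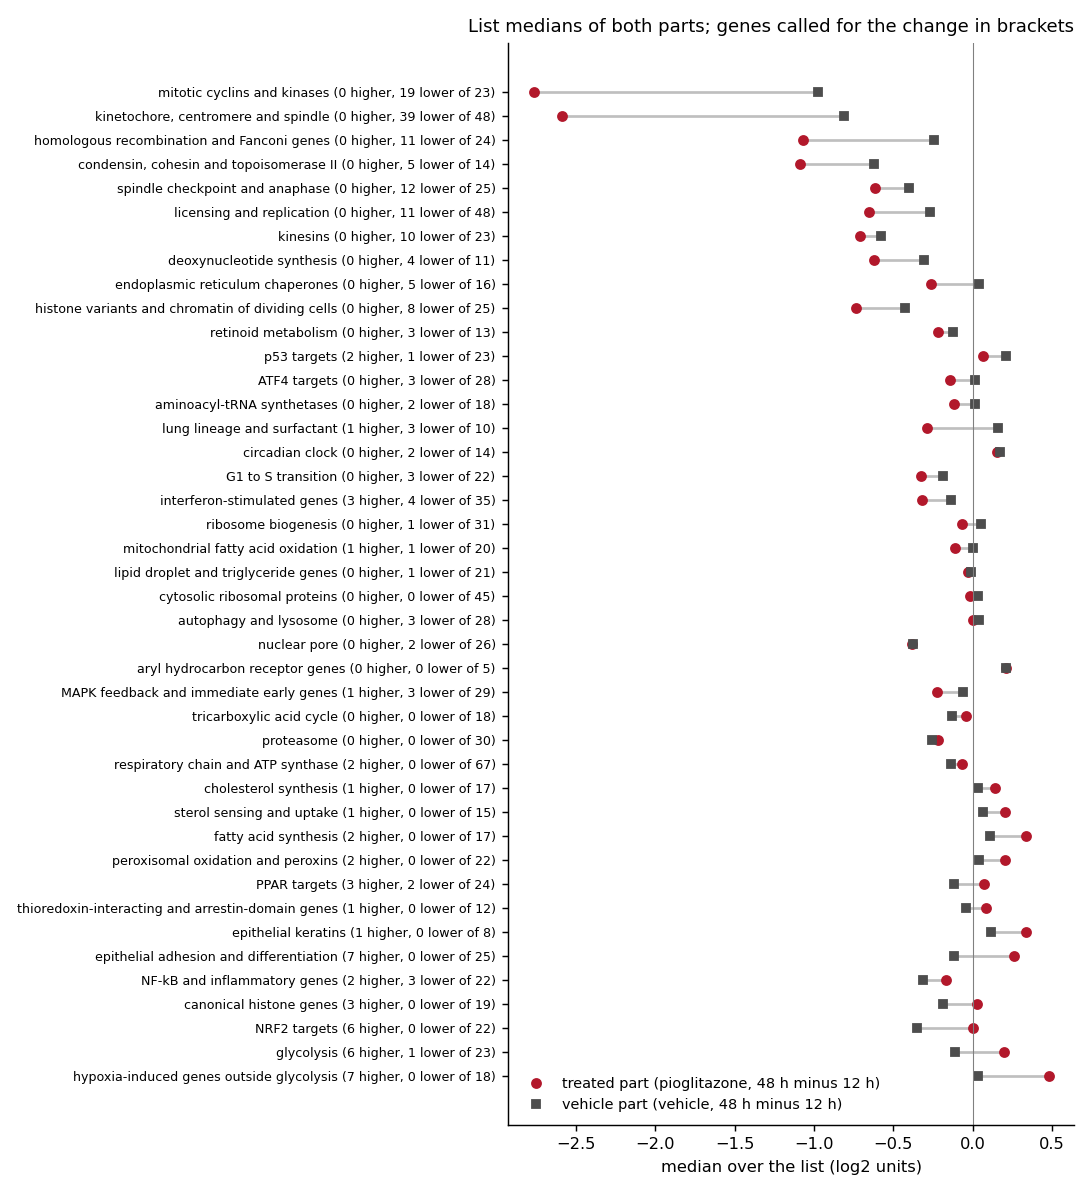
Median treated part (red circles) and median vehicle part (dark squares) of 42 gene lists, in log2 units, ordered by their median change, with the number of genes called for the change beside each name. Mitotic lists have both medians below 0 with the treated one lower, NRF2 targets have a treated median at 0 and a vehicle median of -0.35, and hypoxia-induced genes have a treated median of 0.48 and a vehicle median of 0.03.

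Epithelial adhesion and differentiation genes were called higher for 7 of 25 (28%, against 3.88% of all genes) and lower for none. The median change was 0.23, or 0.09 with no filter on detection. MUC1, the transmembrane mucin of the apical surface, read 12.51, 12.48 and 12.58 with pioglitazone and 11.03, 10.996 and 11.10 with vehicle at 48 h, and 10.96, 10.76 and 10.98 with pioglitazone and 10.92, 10.76 and 10.76 with vehicle at 12 h. The 12 h groups overlapped and the pioglitazone 48 h arrays stood above every other. Its change was 1.40 ± 0.14 (SE; limma adjusted p = 3.91e-06), with 2 further probes at 1.95 and 2.47.

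CEACAM6, a cell adhesion glycoprotein, had the highest change of the genes detected in all 4 groups, 1.98 ± 0.22 (SE; limma adjusted p = 1.66e-05). Its signals were 8.77, 8.46 and 9.32 with pioglitazone and 6.48, 6.57 and 6.49 with vehicle at 48 h, and 8.27, 8.13 and 7.99 with pioglitazone and 7.81, 7.64 and 7.87 with vehicle at 12 h. Vehicle arrays fell by 1.26 while treated arrays rose by 0.72, so the groups separated from both sides. SDCBP2, a syntenin family scaffold, did likewise, with a treated part of 1.00, a vehicle part of -0.87 and a change of 1.88. LFNG, a Notch-modifying glycosyltransferase, rose in both cultures, by 1.77 with pioglitazone and 0.79 with vehicle. Under median scaling MUC1 and SDCBP2 kept the call.

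Other genes high on the list rose in treated cultures with little vehicle movement. LIMCH1, an actomyosin regulator, had a treated part of 2.14 and a vehicle part of 0.31, NEBL, a nebulin-related actin-binding protein, of 2.07 and 0.35 (a change of 1.73, with another probe at 0.56), and DYSF, the membrane repair protein dysferlin, of 1.72 and 0.06. LIMCH1 and DYSF kept the call under median scaling. HPGD, which inactivates prostaglandins, changed by 1.54 and SLC16A9, a monocarboxylate transporter family member, by 1.52. SLC16A9 had an effect of 0.74 at 48 h and -0.79 at 12 h, so the effect had opposite signs at the 2 times.

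Lung lineage genes split. NKX2-1, the lung epithelial transcription factor, had values of 10.23, 10.02 and 10.12 with pioglitazone and 9.68, 9.78 and 9.82 with vehicle at 48 h, and 8.98, 8.92 and 9.19 with pioglitazone and 9.61, 9.72 and 9.62 with vehicle at 12 h. Treated arrays were thus all above vehicle at 48 h and all below it at 12 h, a change of 0.98 ± 0.14 (SE; limma adjusted p = 0.000194). FOXA2, a partner factor of lung and gut epithelium, changed by -0.70, LAMP3, a lysosomal protein of alveolar type II cells, by -2.07 (another probe -1.21), and the surfactant gene SFTPA1 by -1.47. SFTPA1 was detected on 1 pioglitazone 48 h array and has a near-identical neighbour that its probe may read. Of the 10 genes 1 was higher (10%, against 3.88% of all genes), 3 were lower (30%, against 5.22%) and 6 were not called. None of the list kept the call under median scaling.

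The vehicle part was the larger for 55 genes lower at 48 h, and some of the sharpest single changes were of this kind. IL1RL1, the receptor of interleukin 33, read 8.07, 8.36 and 8.52 with pioglitazone and 9.35, 9.88 and 9.69 with vehicle at 48 h, and 9.03, 9.26 and 9.01 with pioglitazone and 8.19, 7.96 and 8.22 with vehicle at 12 h. The drug effect therefore changed sign, being -1.33 at 48 h and 0.98 at 12 h, as vehicle arrays rose by 1.52 and treated arrays fell by 0.78. The change was -2.30 ± 0.20 (SE; limma adjusted p = 1.14e-06), and a second probe gave -2.31.

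LAMP3 read 7.21, 7.41 and 7.80 with pioglitazone and 9.28, 9.37 and 9.13 with vehicle at 48 h, and 7.91, 7.67 and 7.69 with pioglitazone and 7.56, 7.54 and 7.32 with vehicle at 12 h. The vehicle 48 h arrays stood alone above the other 9, and the treated part of -0.28 was not called (limma adjusted p = 0.193). LCN2, the iron-carrier-binding lipocalin, PRPH, the neuronal filament peripherin, and UCN, the stress peptide urocortin, had vehicle parts of 1.59, 1.75 and 1.33 and changes of -1.15, -1.96 and -1.61. Another UCN probe gave -0.64. In the other direction GBP2, an interferon-induced GTPase, had a vehicle part of -1.17 and a treated part of 0.62, and its change was 1.80. IL1RL1, PRPH and GBP2 kept the call under median scaling.

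Effects that faded were fewer, 62 genes in all. TUBA4A, an alpha-tubulin, had an effect of 0.32 at 48 h, not called, and of -0.94 at 12 h, and it rose in both cultures between these times, by 2.18 with pioglitazone and 0.92 with vehicle. ELFN2, a leucine-rich repeat membrane protein, had an effect of 0.22 at 48 h and -0.87 at 12 h, and SERTAD4-AS1, an antisense RNA, of 0.22 and -0.97. Among genes first raised, ARG2, mitochondrial arginase, had an effect of 0.07 at 48 h and 1.10 at 12 h, and DHDH, a dihydrodiol dehydrogenase, of -0.28 and 0.89. GBP1, a relative of GBP2, had an effect of 0.06 at 48 h and -1.08 at 12 h, where its vehicle arrays, 7.56, 7.71 and 7.83, stood above the treated ones, 6.70, 6.67 and 6.48. Its change was 1.15. Without pioglitazone 48 h replicate 3 the GBP1 change was 0.87 and its effect at 48 h -0.21. BMP6, a bone morphogenetic protein, was detected on all 3 arrays with pioglitazone for 12 h and on 1 of 3 in each other group, so its effect of 1.08 at 12 h is against a level near background. Its change of -1.21 (limma adjusted p = 0.0181) had an adjusted p of 0.0544 without vehicle 12 h replicate 3. The count of 62 was 36 without that array. TUBA4A alone of these kept the call under median scaling.

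Among 24 PPAR targets, 19 were not called for the change, and the shares that were called are given below. PDK4, the kinase that shuts pyruvate dehydrogenase, read 8.48, 7.83 and 9.06 with pioglitazone and 5.43, 5.38 and 5.32 with vehicle at 48 h, and 8.41, 8.71 and 8.17 with pioglitazone and 5.88, 6.02 and 5.89 with vehicle at 12 h. Its effect was 3.08 at 48 h and 2.50 at 12 h, both far outside the spread of arrays, while the change of 0.58 ± 0.30 (SE) was not called (limma adjusted p = 0.261). PLIN2, the lipid droplet coat protein, had an effect of 2.32 at 48 h and 1.89 at 12 h, and its change of 0.43 ± 0.14 (SE) was not called either (limma adjusted p = 0.0711). PLIN2 gained the call in 5 of 23 alternative settings and PDK4 in 1. A change that misses the threshold does not show that the effects were equal.

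Of 24 PPAR targets 3 were called higher (12.5%, against 3.88% of all genes) and 2 lower (8.33%, against 5.22%). CAT, catalase, changed by 0.84 with an effect of 1.49 at 48 h and 0.65 at 12 h. FABP3, a fatty acid-binding protein, is counted among the 3 higher genes but was detected, of the 4 groups, only with pioglitazone for 48 h. It was there at least 1.46-fold above vehicle, and its change of 1.25 became 0.58 with the 3 dim groups at the floor. ACSL1, the long-chain acyl-CoA synthetase, had an effect of 0.13 at 48 h and 0.93 at 12 h, with a treated part of -0.31 and a vehicle part of 0.49 whose sizes could not be separated. PPARG itself changed by -0.13 ± 0.13 (SE; limma adjusted p = 0.629).

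Sterol synthesis genes were high with the drug at both times. The median effect over 17 cholesterol synthesis genes was 0.98 at 48 h and 1.00 at 12 h. For the change 1 of them was called, and it was higher (5.88%, against 3.88% of all genes). This was LSS, which closes the sterol ring, at 1.04, with 2 further probes at 0.28 and 0.41. HMGCS1, an early enzyme of the pathway, had an effect of 1.52 at 48 h and 1.19 at 12 h and a change of 0.34 (limma adjusted p = 0.27). ABCA1, the cholesterol exporter, rose in both cultures, by 1.55 with pioglitazone and 0.73 with vehicle, and its change was 0.82. PHYH, a peroxisomal oxidation enzyme, changed by 0.65, and SCD5, a stearoyl-CoA desaturase, by 0.82, with another probe at 0.32. None of these kept the call under median scaling.

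In the lists of endoplasmic reticulum chaperones, ATF4 targets and aminoacyl-tRNA synthetases, every called gene was lower. All 16 endoplasmic reticulum chaperones tested had a change below 0, with a median of -0.32, and 5 were called lower (31.2%, against 5.22% of all genes), among them DNAJC3, an inhibitor of the kinase PERK, at -0.91 and MANF, a secreted chaperone, at -0.79. Of 28 ATF4 targets 3 were called lower (10.7%) and 25 were not called: SLC7A5, a large neutral amino acid transporter, at -0.91, DDIT3, the transcription factor CHOP, at -0.81, and TRIB3, a pseudokinase, at -0.76. DDIT3 owed this to vehicle cultures, with a vehicle part of 0.80 and a treated part of -0.02, whereas SLC7A5 had a treated part of -1.02. Of 18 aminoacyl-tRNA synthetases 2, VARS1 at -0.81 and AARS1 at -0.66, were called lower (11.1%). None of these kept the call under median scaling.

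Retinoid genes were called lower for 3 of 13 (23.1%, against 5.22% of all genes). ALDH1A3, which makes retinoic acid, had signals of 7.85, 7.57 and 7.88 with pioglitazone and 9.77, 9.86 and 9.86 with vehicle at 48 h, and 8.99, 8.98 and 8.75 with pioglitazone and 9.81, 9.72 and 9.75 with vehicle at 12 h. Vehicle arrays overlapped between the times, treated arrays lay below them at both and lowest at 48 h, a change of -1.20 ± 0.15 (SE; limma adjusted p = 4.5e-05). DHRS3, which reduces retinal, had an effect of -2.17 at 48 h and -1.19 at 12 h through a vehicle part of 0.92, and CRABP2, a retinoic acid carrier, changed by -0.89. Of these, none kept the call under median scaling.

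Interferon-stimulated genes were divided, with 3 of 35 higher (8.57%, against 3.88% of all genes) and 4 lower (11.4%, against 5.22%), and a median change of -0.11. IFI44L changed by -1.17, with another probe at -0.40, and HERC5 by -0.66. HERC6 changed by 1.06, or 0.80 without pioglitazone 48 h replicate 3, and TRIM22 by 1.02. Of 22 inflammatory genes 2 were higher (9.09%) and 3 lower (13.6%), LCN2 among the lower ones. CXCL10, a chemokine, was detected only on vehicle 12 h arrays, so its change of 0.89 rests on that group, and its adjusted p was 0.0724 without vehicle 48 h replicate 1. In the MAPK list CCN2, a matrix-associated growth factor, changed by -1.24 and HBEGF, an EGF receptor ligand, by 0.79, with 3 of 29 lower (10.3%) and 1 higher (3.45%). p53 targets gave 2 higher (8.7%) and 1 lower (4.35%) of 23. CDKN1A, the p21 inhibitor, changed by -0.28 ± 0.16 (SE; limma adjusted p = 0.307), with another probe at -0.61. TXNIP, a glucose-responsive arrestin, rose in both cultures, by 1.70 with pioglitazone and 1.52 with vehicle, and its change of 0.18 was not called.

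No gene was called for the change among 45 cytosolic ribosomal proteins, 30 proteasome subunits and 5 aryl hydrocarbon receptor genes by limma. Nuclear pore genes had a median treated part of -0.38 and a median vehicle part of -0.37. Of 26 such genes 2 were called, both lower (7.69%, against 5.22% of all genes). Circadian clock genes gave 2 lower of 14, autophagy and lysosome genes 3 lower of 28, and ribosome biogenesis genes 1 lower of 31, shares to be read against 5.22% of all genes.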

How the data were processed

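RNA was measured on Illumina HT-12 v4 beadchips. Per the file headers, the deposited table pairs 1 signal intensity with 1 detection p-value per probe and array (47323 probes), and unequal array medians show that it is not normalized; per the submitters' processing notes GenomeStudio was used, with no version given in the sources used here. The authors' own processed values, quantile-normalized as their equal medians show, served as an alternative.

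In R 4.3.3 with limma 3.58.1, intensities were background-corrected and quantile-normalized with neqc (offset 16), using detection p-values in place of negative control probes. Probes detected at p under 0.01 on at least 3 of 18 arrays were kept, 20032 in all. Each gene took its brightest kept probe, giving 11680 genes. Gene names came from the platform annotation: 30113 probes had 1 symbol, 8 several and 17202 none. One model of 6 group means over 18 arrays was fitted, and contrasts were tested with Benjamini-Hochberg adjustment over all genes. The code was tested on simulated data. A group below background on all its arrays was raised to the lowest detected signal for the bounds. The number of arrays limits the precision.

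Named genes were the 12 highest and 12 lowest called changes detected in each group and stable without pioglitazone 48 h replicate 3, the 4 highest and lowest of each class by part or by effect, up to 4 called genes per list and direction (2 of the largest where none was called), up to 3 per direction with a group below background, and always 10 further genes (PDK4, PLIN2, ANGPTL4, PPARG, AKR1B10, MKI67, CDKN1A, CCND1, TXNIP, HMGCS1). The members and lists were chosen with earlier results of these data known. Alternatives changed the background correction, scaling, filter, probe choice, weights, blocks and arrays used. Replicate numbers were not treated as pairs in the reported fit. Same-numbered arrays' deviations correlated at -0.292 to 0.222, and 2 of 18 values were over 0.1. For differently numbered arrays the range was -0.185 to 0.295, and 9 of 36 values were over 0.1. Deviations from a mean of 3 arrays are tied to each other, so these values cannot decide whether samples were paired.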

Additional observations from a re-analysis of the deposited data

Results flagged for a closer look

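Of the named genes, 15 moved in opposite directions in the cultures, with both parts called by limma; the change in effect is itself the test of that difference. IL1RL1 changed by -2.305, SFTPA1 by -1.472, DHDH by -1.171, IFI44L by -1.167, MANF by -0.793 and AARS1 by -0.6615. For these the treated part was below 0 and the vehicle part above it. The effect of the drug on IL1RL1 was -1.33 at 48 h and 0.98 at 12 h, and on DHDH -0.28 at 48 h and 0.89 at 12 h.

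In the other direction ERP27, a relative of protein disulfide isomerases, changed by 1.987, CEACAM6 by 1.98, SDCBP2 by 1.878, GBP2 by 1.797, OLFML2A, an extracellular matrix protein, by 1.594, and AMPD3, an AMP deaminase, by 1.458. SERTAD4-AS1 changed by 1.187, TRIM22 by 1.024 and BNIP3 by 0.9083. ERP27 and AMPD3 were at background on the vehicle 48 h arrays, and at the floor their changes were 1.59 and 1.15. Their effects at 48 h were at least 2.63-fold and at least 1.49-fold higher.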

How the results depend on the processing

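Settings that moved counts of called genes by over 1.5 times were median scaling, array weights, a fit of the 12 arrays alone and leaving out single arrays. With median scaling the change was called for 67 genes, 8 higher and 59 lower, with the treated part larger for 59, the vehicle part larger for 1, the effect larger at 48 h for 59 and at 12 h for 1; the treated part was called for 1051 genes, the vehicle part for 373, the sum of parts for 1740 and the sum of effects for 639. With array weights, which gave pioglitazone 48 h replicate 3 the weight 0.133, the counts were 1697, 756 higher, 941 lower, 992 treated part larger, 195 vehicle part larger and 135 larger at 12 h. With the 12 arrays alone they were 699, 289 higher, 64 vehicle part larger and 35 larger at 12 h. The cause was not tested.

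Leaving out each of the 12 arrays gave 758 (without pioglitazone 12 h replicate 1) to 1303 genes (without pioglitazone 48 h replicate 3), 309 to 590 higher and 449 to 776 lower. The vehicle part was larger for 63 (without vehicle 12 h replicate 3) to 141 genes and the effect larger at 12 h for 36 (without the same array) to 88. With the replicate block 1025 genes were called, 428 higher and 597 lower, and 142 of 147 called named genes kept the call.

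The sign turned for ANGPTL4 with the mean of kept probes (-0.01427), for CCND1 with median scaling (0.07702) and array weights (0.0055), and for PPARG with median scaling (0.06494); none of them was called. The median-scaling values include the shift of 0.15 common to all genes, which is larger than either, so they show no turn relative to other genes. Of 42 list medians 11 took the other sign under it; relative to all genes only the MAPK (0.00) and aryl hydrocarbon receptor (0.01) medians did. Of the 147 called named genes, 29 lost the call without at least 1 array, among them BMP6, SLIT2, TYMS and CXCL10. Background correction set the size of list medians: without it the medians of the kinase, kinetochore, hypoxia and replication lists were nearer 0 (-1.07, -0.84, 0.27 and -0.18). Signals near background limit what could be read for the 94 called genes with a dim group.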

Other observations

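The following 3 genes of no list were chosen after their values were seen, and their treated and vehicle parts were called in opposite directions. GDF15, a stress-induced hormone of the TGF-beta family, read 7.29, 7.84 and 7.07 with pioglitazone and 9.22, 9.46 and 9.30 with vehicle at 48 h, and 8.48, 8.61 and 8.83 with pioglitazone and 8.16, 8.38 and 8.38 with vehicle at 12 h. Its change was -2.26, and -2.09 without pioglitazone 48 h replicate 3. INHBE, an activin subunit, had a treated part of -1.13, a vehicle part of 1.01 and a change of -2.14. SEMA3A, a semaphorin guidance cue, had a treated part of -1.38, a vehicle part of 0.51 and a change of -1.89.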
